A study of Schizosaccharomyces pombe with 24 samples.

Results

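The last 12 h of the starvation course were examined as a single step, in which pho7Δ cells starved of phosphate for 48 h were compared with pho7Δ cells starved for 36 h. A gene entered the comparison when the higher of its 2 group averages reached 100 normalized reads, which 5622 of the 6987 annotated genes did (4882 protein-coding genes, 700 noncoding RNA genes and 40 others, among them pseudogenes and structural RNAs). Both groups were haploid Schizosaccharomyces pombe of strain AGP83, genotype h- pho7Δ::natMX, kept in ePMGT(-PO4), a defined glutamate medium with thiamine and without phosphate, and each held 3 biological replicates of poly(A)+ RNA. By the paper's strain list, every strain also carries mutant alleles of leu1, ura4, his3 and ade6. The other 6 groups of the 24 libraries were the same strain in YES, a rich yeast extract medium (0 h), and after 4 h, 8 h, 12 h and 24 h of starvation, and wild type (WT) strain AGP72, h-, at 0 h. The deletion was carried by the 48 h and the 36 h group alike, by 1 strain, so the step measures the course of starvation without Pho7 and not the part of Pho7 in it. Starved cultures were diluted with the same medium as they grew, and bulk RNA cannot tell a change in all cells from a change in the share of cells that hold a transcript.

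Fission yeast that runs out of phosphate induces the PHO genes, which encode the secreted acid phosphatase Pho1, the phosphate transporter Pho84 and the glycerophosphodiester transporter Tgp1. Pho7 is a zinc-cluster transcription factor that binds their promoters and is needed for their full induction. With prolonged starvation the cells stop dividing and enter quiescence, a state in which they make less of the protein synthesis machinery and recycle cell contents by autophagy. In the paper, deleting ecl1, ecl2 and ecl3 of the Ecl family together shortened survival without phosphate. Deleting ecl3 alone did not, in a preliminary experiment.

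The files give 1 average of normalized reads for each group, and the reads of the 3 libraries behind each average were recovered from its digits for 5446 of the 5622 genes. The letters a, b and c name the libraries of a group by falling depth and do not pair a 48 h library with a 36 h library. Recovered reads summed to 13027511, 8821317 and 8501844 in the 48 h libraries, against 11574514, 10748738 and 9308426 in the 36 h libraries. Within a group the libraries correlated across genes with r between 0.996 and 0.997 at 48 h and between 0.995 and 0.996 at 36 h, and the SD of a gene between libraries had a median of 0.050 at 48 h and 0.064 at 36 h on the log2 scale. For averages above 3000 the search admitted libraries between 0.6 and 1.5 times the mean, so a 3-fold difference between libraries could be found only below that level. At 48 h, 4 genes differed over 3-fold between the libraries of the group (gdt1, SPAC186.06, srp7 and SPRRNA.49), against 2 at 36 h (gdt1 and SPAC186.06). The deleted gene kept some reads in both groups, with 339, 365 and 299 normalized reads at 48 h, against 358, 444 and 356 at 36 h, where WT at 0 h averaged 3147. Of the mating type genes checked against the h- label, mfm1, mfm2, mam1 and mam2 of M cells were measured and mat1-Mc was listed at 0, and map2, map3 and sxa1, which P cells use, were measured as well. None of these 7 passed the test between 48 h and 36 h.

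By the count of genes past 2-fold, the step from 36 h to 48 h was the smallest of the course. At least 2-fold differences were found for 589 genes between 4 h and 0 h (10.7% of those measured in that step), 203 between 8 h and 4 h (3.66%), 51 between 12 h and 8 h (0.912%), 117 between 24 h and 12 h (2.07%), 12 between 36 h and 24 h (0.213%) and 4 between 48 h and 36 h (0.0711%). The median absolute log2 ratio of averages was 0.0698 in the last step, with 66.5% of genes within 0.1 of no difference and 94.7% within 0.25. The whole set was centred near 0, with a median log2 ratio of -0.0022. Of the 4 genes, SPCC737.04 and the 7SL RNA gene srp7 had the higher average at 48 h, and SPBPB2B2.06c and tgd1 the lower (0.0356% in each direction). The ratio of srp7 rested on a single 48 h library, and its groups overlapped. The genes nearest to the 2-fold limit on its inner side were tif211-antisense-1 among the lower ones, with a log2 ratio of -0.99, and SPNCRNA.1121 among the higher ones, with 0.99. With both averages scaled to the same total, 4 genes were 2-fold higher and 2 lower, in place of 2 and 2.

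**Figure D1:**
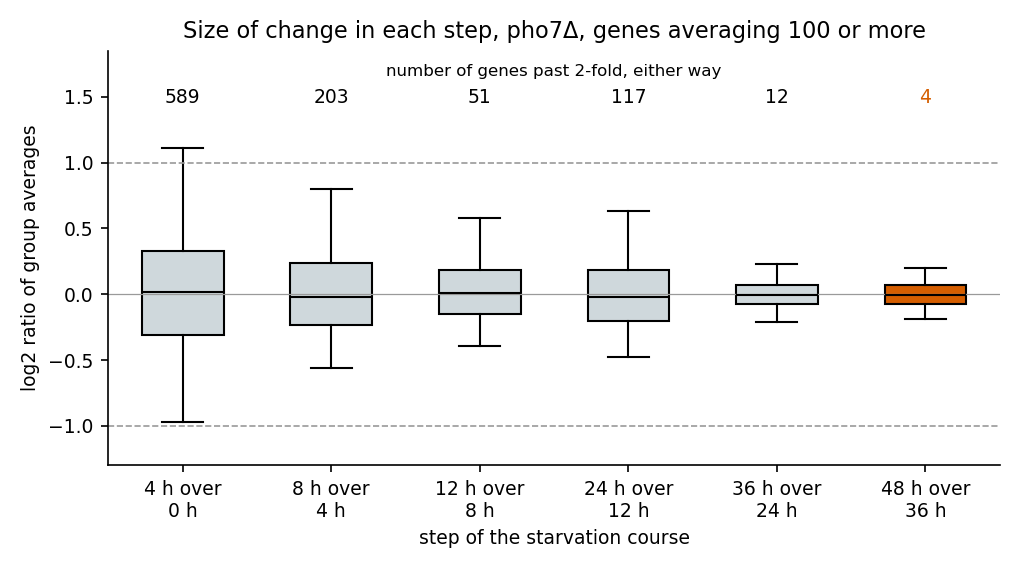
Log2 ratio of group averages in each step of the starvation course of pho7Δ cells, for genes averaging 100 or more normalized reads in the higher group of the step. Boxes run from the lower to the upper quartile of the genes, lines mark the median, whiskers reach the 5% and 95% quantiles, dashed lines mark 2-fold and the numbers count genes past 2-fold. The last step has the narrowest box and 4 genes past 2-fold, against 12 in the step before it.

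Smaller differences were tested on the recovered reads, with a median SE of 0.0487 on the log2 scale. In a limma voom fit of the recovered reads of all 7 pho7Δ groups, 767 of the 5433 genes tested passed an adjusted p of 0.05 (14.1%), 356 of them higher at 48 h (6.55%) and 411 lower (7.56%). Of the 767, 599 differed by under 1.2-fold and their median absolute log2 ratio was 0.174. At 1.5-fold or more there were 15 genes higher (0.267%) and 15 lower (0.267%), 30 in all (0.534%). Only 11 genes rose (0.202%) and 13 fell (0.239%) by 1.5-fold or more and passed. The count of calls depended on how the spread was estimated: with the 6 libraries of 48 h and 36 h alone it was 404, of which 384 were among the 767. Without 48 h library a, 48 h library b, 36 h library a or 36 h library c it was 493, 502, 510 and 510. Scaling both groups to the same total, which adds 0.032 to every log2 ratio, gave 648 genes higher and 237 lower. The 189 genes without a test were mostly abundant, 183 of them averaging over 10000 normalized reads in at least the higher group, since a large average often had more than 1 solution or lay above the range searched, and 132 of these 189 lay below 0.

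**Figure D2:**
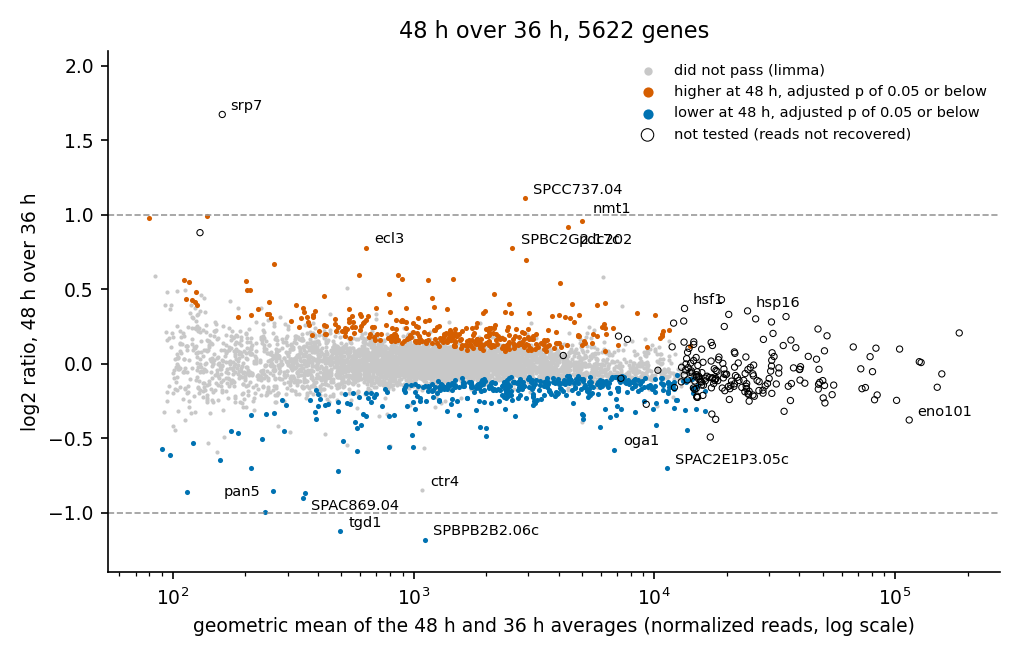
Log2 ratio of the group averages, 48 h over 36 h, against the geometric mean of both averages (log axis) for 5622 genes. Orange and blue points passed the limma test as higher or lower at 48 h, grey points did not pass, open circles were not tested, and dashed lines mark 2-fold; SPCC737.04, nmt1 and pdc202 stand at the top among genes of high level and SPBPB2B2.06c and tgd1 at the bottom.

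The protein-coding gene with the greatest increase was SPCC737.04, of the UPF0300 family, whose role is not known. It had 4379, 4457 and 3937 normalized reads at 48 h, against 1949, 2055 and 1901 at 36 h, so that no library overlapped between the groups, and it rose 2.16-fold (SE 0.059 on the log2 scale, limma adjusted p = 1.66e-11). Its course differed from that of the other genes at the top: at 0 h it averaged 5505, it averaged between 1252 and 1583 from 4 h to 24 h, and WT at 0 h averaged 15360.3. A second UPF0300 gene, meu27, had 239.8, 236 and 255 normalized reads at 48 h, against 187, 144 and 168 at 36 h and rose 1.47-fold (log2 difference 0.55 ± 0.096 SE, adjusted p = 0.000625), again with an average at 0 h (362) above that at 48 h.

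For the next genes 48 h was the time of the highest average. nmt1 encodes an enzyme of thiamine synthesis, which makes the pyrimidine part, and is repressed when thiamine is supplied. It had 7044, 7200.2 and 6738 normalized reads at 48 h, against 3535, 3591 and 3694 at 36 h and rose 1.94-fold (log2 difference 0.96 ± 0.045 SE, adjusted p = 5.88e-12). Its average was 112 at 0 h, 548 at 12 h and 1415 at 24 h. On the thiamine list nmt1 was the only one of 8 genes that rose, 1 fell and the median log2 ratio was 0.024. The gene that fell was snz1, of pyridoxine synthesis, with 9112, 9218 and 8323 at 48 h, against 10489, 10654 and 11792 at 36 h (log2 difference -0.30 ± 0.055 SE, adjusted p = 0.000846), while thi5, which encodes a transcription factor of the thiamine genes, had 2124, 2028 and 1942 at 48 h, against 1853, 1957 and 1761 at 36 h (adjusted p = 0.0627), and passed with equal totals (adjusted p = 0.0192) or without 48 h library c or 36 h library b (adjusted p = 0.0387 and 0.0268).

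pdc202, a predicted pyruvate decarboxylase, had 8137, 5559 and 4428 normalized reads at 48 h, against 2988, 2778 and 3826 at 36 h and rose 1.89-fold (log2 difference 0.89 ± 0.15 SE, adjusted p = 0.000544). Its 48 h libraries were spread widely, from 4428 to 8137, and all lay above the 36 h libraries. The related genes pdc201 and pdc101 were abundant and could not be tested, pdc201 with an average of 51873 at 48 h, against 44127 at 36 h and pdc101 with 141709 at 48 h, against 158079 at 36 h. SPBC2G2.17c, which encodes Psu2, a predicted beta-glucosidase, had 3314, 3587 and 3197 normalized reads at 48 h, against 1840.1, 2199 and 1866 at 36 h and rose 1.71-fold (log2 difference 0.78 ± 0.071 SE, adjusted p = 2.35e-07). It had averaged 14 at 0 h and 89.9 at 12 h.

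Of the Ecl family, small proteins that extend chronological lifespan, ecl3 alone was among the top genes. It had 742, 833 and 908 normalized reads at 48 h, against 412, 506 and 528 at 36 h and rose 1.72-fold (log2 difference 0.77 ± 0.11 SE, adjusted p = 5.31e-05). ecl2 had 5477, 5323 and 4805 at 48 h, against 4743, 4819 and 4147 at 36 h, which overlapped, and passed (log2 difference 0.19 ± 0.048 SE, adjusted p = 0.0125), although not with the 6 libraries of 48 h and 36 h alone, or without 48 h library a, 48 h library b or 36 h library c (adjusted p up to 0.0942). ecl1 had 9381, 9365 and 9115 at 48 h, against 11111, 11912 and 10912 at 36 h, all 48 h libraries below the 36 h ones, and did not pass (adjusted p = 0.0976) except in the fit of the 6 libraries alone (adjusted p = 0.00255). The 3 genes of this family thus stood on both sides of 0 in this step, with log2 ratios of 0.78, 0.19 and -0.28 for ecl3, ecl2 and ecl1.

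Further down the order of increases stood genes of RNA binding and of meiosis. puf5, a predicted pumilio family RNA-binding protein, had 1109, 992 and 1059 normalized reads at 48 h, against 665, 631 and 799 at 36 h and rose 1.51-fold (log2 difference 0.62 ± 0.061 SE, adjusted p = 9.13e-07). rec10, a component of the linear elements of meiotic chromosomes, had 1085, 1092 and 1109.6 at 48 h, against 716, 692 and 807 at 36 h and rose 1.48-fold (log2 difference 0.58 ± 0.053 SE, adjusted p = 2.79e-07). SPCC584.16c, a protein known only in Schizosaccharomyces, had 319, 335 and 338 at 48 h, against 184, 231 and 210.3 at 36 h and rose 1.59-fold (log2 difference 0.67 ± 0.096 SE, adjusted p = 7.63e-05). The other genes among the 10 with the largest increases missed the threshold. hry1, encoding a predicted cation-binding protein, had 9350.1, 6996 and 6055 normalized reads at 48 h, against 5158, 4700.3 and 5073 at 36 h (adjusted p = 0.115) and SPAPB1A11.02, a predicted esterase or lipase near the minimum, had 95.2, 106 and 110.0 at 48 h, against 82.7, 70.7 and 53.6 at 36 h (adjusted p = 0.0695, and 0.0498 with equal totals). hry1 was one of 3 genes that differed over 3-fold between libraries at 24 h, and with the 6 libraries of 48 h and 36 h alone it passed (adjusted p = 0.0125).

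**Figure D3:**
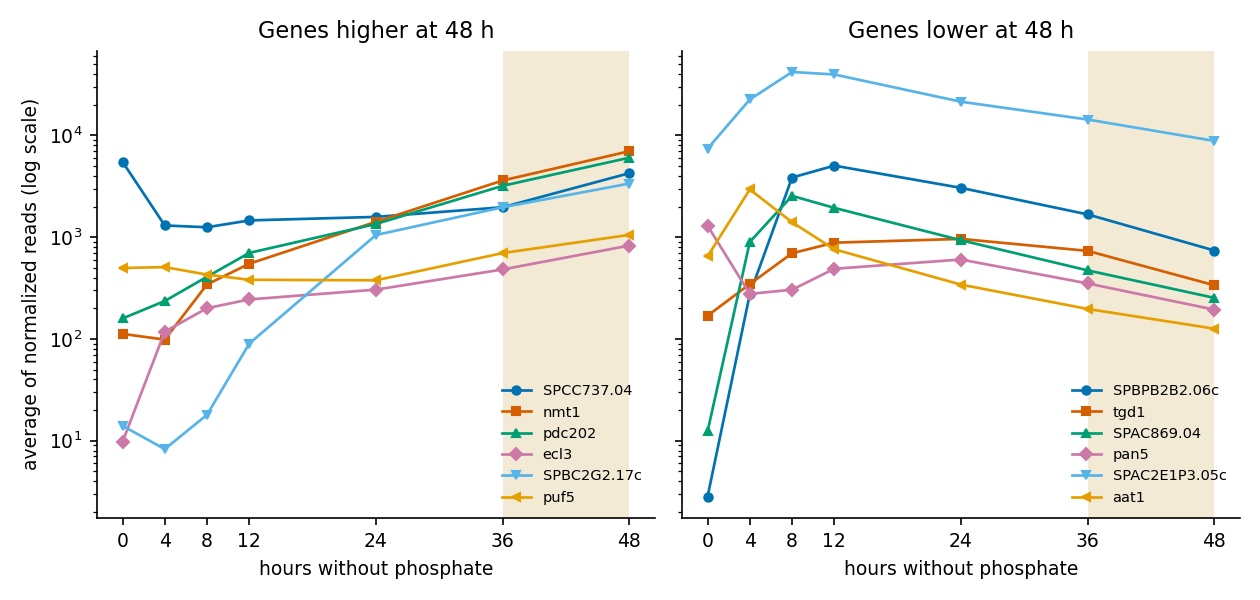
Group averages (normalized reads, log axis) over the starvation course of pho7Δ cells for 6 genes higher at 48 h (left) and 6 genes lower at 48 h (right), with the interval from 36 h to 48 h shaded. nmt1, pdc202 and SPBC2G2.17c climb through the course and SPCC737.04 starts high, while the genes on the right have their highest averages between 0 h and 24 h and lower ones at 36 h and 48 h, with pan5 high at 0 h, low at 4 h and high again at 24 h.

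Among decreases the greatest was that of SPBPB2B2.06c, which encodes a predicted extracellular 5′-nucleotidase, an enzyme that frees phosphate from AMP outside the cell. It had 798, 673 and 747 normalized reads at 48 h, against 1473, 1805 and 1746 at 36 h and was 2.26-fold lower at 48 h (log2 difference -1.16 ± 0.085 SE, adjusted p = 8.91e-09). Its average had been 2.82 at 0 h, 3855 at 8 h and 5048 at 12 h, its highest. tgd1, a predicted nucleotide-sugar dehydratase, had 433, 317 and 261 normalized reads at 48 h, against 725, 669 and 806 at 36 h and was 2.18-fold lower at 48 h (log2 difference -1.09 ± 0.23 SE, adjusted p = 0.00302). It overlaps gal10 in the ASM294v3 annotation, and the sources used here do not say how overlapping reads were counted.

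Both genes belong to a row of neighbours near one end of chromosome II, which was singled out after its values were seen. In gene order the row holds SPBPB2B2.05, SPBPB2B2.06c, SPBPB2B2.07c, SPBPB2B2.08, pan5, gal7, tgd1, gal10 and gal1, and all but SPBPB2B2.07c reached the minimum of 100. In each of the 8 measured genes all 48 h libraries lay below all 36 h libraries, where 15.6% of all genes with recovered reads showed this. As the row was chosen by these same values, the 8 genes are no evidence when set beside that share. SPBPB2B2.05, of the class I glutamine amidotransferase family, had 801, 806 and 839.8 normalized reads at 48 h, against 1077, 1411 and 1119 at 36 h (log2 difference -0.55 ± 0.092 SE, adjusted p = 0.000388). SPBPB2B2.08, a conserved fungal protein, had 89.2, 80.5 and 86.5 at 48 h, against 127, 155 and 182 at 36 h (log2 difference -0.82 ± 0.14 SE, adjusted p = 0.000553). pan5, a predicted enzyme of pantothenate synthesis, had 216, 199 and 166 at 48 h, against 304, 348 and 401 at 36 h (log2 difference -0.82 ± 0.13 SE, adjusted p = 0.000195). With SPBPB2B2.06c and tgd1 these made 5 calls.

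The 3 genes of galactose use next to them were lower by less. gal7, galactose-1-phosphate uridylyltransferase, had 773, 686 and 618 normalized reads at 48 h, against 929, 824 and 872 at 36 h, gal10, the epimerase, had 527, 414 and 366 at 48 h, against 691, 594 and 625 at 36 h, and gal1, galactokinase, had 436, 347 and 310.5 at 48 h, against 529.5, 496 and 491 at 36 h. Their adjusted p-values were 0.127, 0.0545 and 0.128 in the fit of all groups, and 0.0252, 0.0150 and 0.0213 in the fit of the 6 libraries alone. Before the row the groups overlapped. say1, a predicted sterol deacetylase, had 244, 166 and 173 at 48 h, against 212, 214 and 217 at 36 h (adjusted p = 0.741) and SPBPB2B2.01, a predicted amino acid transporter, had 6813, 6407 and 6446 at 48 h, against 6519.6, 7488 and 6607 at 36 h (adjusted p = 0.458). The 6 genes that follow gal1 in gene order did not reach the minimum. Before the step the genes of the row had different courses: pan5 had its highest average at 0 h (1294), gal1 at 8 h (1915), SPBPB2B2.06c at 12 h (5048) and tgd1 at 24 h (962).

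**Figure D4:**
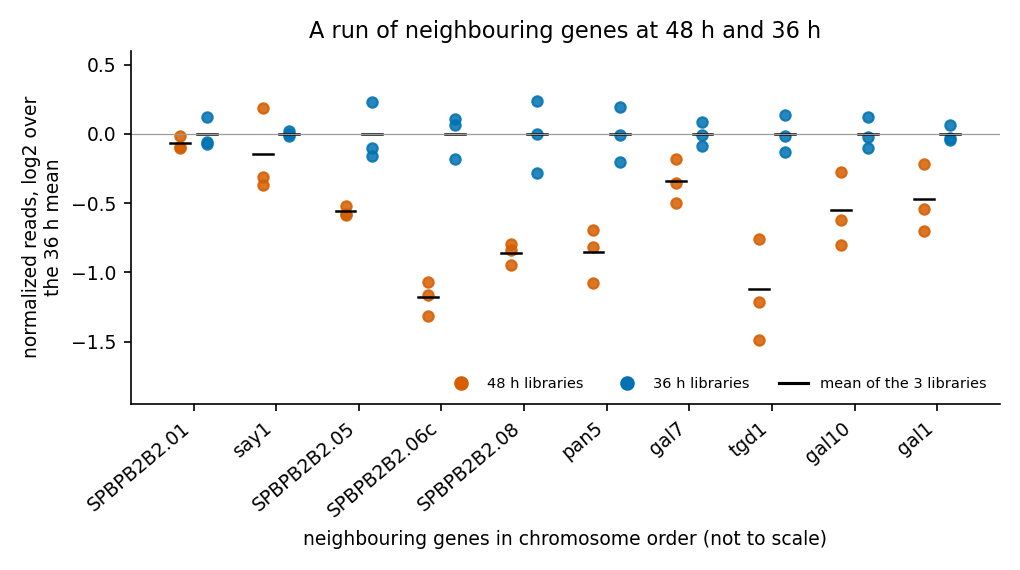
Normalized reads of each library, as log2 over the 36 h mean of the gene, for measured neighbours in chromosome order, with 48 h libraries in orange to the left of the 36 h libraries in blue and bars for the mean of the 3 libraries. From SPBPB2B2.05 to gal1 all 48 h libraries lie below all 36 h libraries, and in SPBPB2B2.01 and say1 they overlap.

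A pair of neighbours near one end of chromosome I was among the 5 protein-coding genes with the lowest ratios. SPAC869.04, a formamidase-like protein, had 345, 207 and 208 normalized reads at 48 h, against 397, 436 and 582 at 36 h and fell (log2 difference -0.83 ± 0.18 SE, adjusted p = 0.0043), and SPAC869.03c, a predicted urea transporter, had 318, 236 and 229 at 48 h, against 402, 452 and 576 at 36 h and fell (log2 difference -0.81 ± 0.21 SE, adjusted p = 0.0125), and SPAC869.03c lost its call when 48 h library b or 36 h library c was left out (adjusted p up to 0.0603). The genes next to the pair did not pass the test. On one side SPAC869.05c, a predicted sulfate transporter, had 1054, 919.7 and 884 at 48 h, against 799, 945 and 1008 at 36 h (adjusted p = 0.526), and hry1, described above, is the next gene. On the other side yhb1, nitric oxide dioxygenase, had 7439, 7664 and 7757 at 48 h, against 7272, 7112 and 7082 at 36 h (adjusted p = 0.125). SPAC869.01 beyond it was below the minimum, with averages of 18.1 at 48 h, against 39.9 at 36 h, and was not counted among the calls. All its 48 h libraries lay below the 36 h ones, and it passed in the fit of all groups (log2 difference -1.14 ± 0.31 SE, adjusted p = 0.0163). Over the 80 measured genes of the subtelomeric clones, which hold both this pair and the row above, 2 rose and 13 fell of 73 tested, with a median log2 ratio of -0.046, where 6.55% of all genes rose and 7.56% fell. Without 36 h library c 8 fell, and without 48 h library b 9. The list was drawn up with earlier results of these data in view, and its 6 lowest members are SPBPB2B2.06c, tgd1, SPAC869.04, SPAC869.03c, SPBPB2B2.08 and pan5. The 2 that rose were cao2, a copper amine oxidase-like protein with 9581, 9674 and 9422 at 48 h, against 7728, 7611 and 7291 at 36 h (log2 difference 0.34 ± 0.044 SE, adjusted p = 2.44e-05), and SPBPB21E7.04c, a predicted methyltransferase with 4302, 4241 and 4051 at 48 h, against 3531, 3261 and 3277 at 36 h (log2 difference 0.32 ± 0.076 SE, adjusted p = 0.00745), both named after their values were seen.

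The other large decreases were of cell surface proteins and transporters. SPAC2E1P3.05c, which holds a fungal cellulose-binding domain, had 7981, 8668 and 9839 normalized reads at 48 h, against 15359, 15831 and 11768 at 36 h and was 1.62-fold lower (log2 difference -0.69 ± 0.096 SE, adjusted p = 5.31e-05). Its average had been 42007 at 8 h. pfl9, a flocculin of the cell surface, had 179, 137 and 183 at 48 h, against 238, 244 and 327 at 36 h (log2 difference -0.66 ± 0.17 SE, adjusted p = 0.0138) and was not called without 48 h library b or 36 h library c (adjusted p up to 0.0718). aat1, an amino acid transporter, had 122, 123 and 134 at 48 h, against 196, 174 and 222 at 36 h (log2 difference -0.64 ± 0.11 SE, adjusted p = 0.000365), after an average of 2946 at 4 h. ctr4, of the high-affinity copper transporter, had 738, 1078 and 607 at 48 h, against 1126, 2076 and 1153 at 36 h and did not pass in the fit of all groups (adjusted p = 0.0646), though it did with the 6 libraries alone (adjusted p = 0.0431). Its 36 h library b, at 2076, stood apart from the other two.

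In the phosphate acquisition list, the genes through which the cell takes up, frees or stores phosphate, 11 genes were measured and 8 tested. The names of 3 more transporters on it, pho841, pho842 and pho843, matched no gene name in the data. They may stand under other names, since the paper reports values for pho842 and pho843, and were not followed here by name. None rose and 1 fell, SPBPB2B2.06c, and the median log2 ratio was -0.016, which turned to 0.016 with both groups scaled to the same total. Of the PHO genes, pho1 averaged 39014 at 48 h, against 34942 at 36 h and pho84 averaged 69715 at 48 h, against 64476 at 36 h, both too abundant for a test, with log2 ratios of 0.16 and 0.11. tgp1 had 9910.3, 10332 and 9552 normalized reads at 48 h, against 8855, 10529 and 8373 at 36 h (adjusted p = 0.3, and 0.0207 without 36 h library b). The polyphosphate synthesis genes vtc4, vtc2 and nrf1 had log2 ratios of -0.041, 0.033 and -0.016 and adjusted p-values of 0.549, 0.574 and 0.843. Of the remaining nucleotidases, SPAC1039.02 was also lower, with an average of 46685 at 48 h, against 56012 at 36 h, and was not tested. SPAC17G6.03 went the other way, with 3231, 3221 and 3269 at 48 h, against 2967, 3127 and 3077 at 36 h (adjusted p = 0.101, and 0.0229 with equal totals). The genes pho8, of a vacuolar alkaline phosphatase, and pho4, of a thiamine-repressible acid phosphatase, had log2 differences of -0.078 and -0.16 and did not pass (adjusted p = 0.346 and 0.0763), although pho4 did with limma's trend on log2 values (adjusted p = 0.0291). SPBC1683.01, a predicted phosphate transporter that no name on the list matched, was named after its value was seen. It averaged 33788 at 48 h, against 27823 at 36 h and was not tested.

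The signalling genes upstream, which hold the inositol pyrophosphate enzymes and kinases that act on the PHO genes, had no call among 12 tested (limma, adjusted p of 0.05), and 1 fell without 36 h library b. Their log2 ratios lay between -0.21, that of the deleted gene pho7 itself, and 0.067, that of kcs1. Of the genes the study lists as needing Pho7 for induction, a list chosen on these samples and so no independent evidence of direction, 18 were found and measured. The names pho842 and tna1 matched none. Of 14 tested 3 rose and 3 fell, beside 6.55% and 7.56% of all genes. Among those called were ecl3, SPBPB2B2.06c and SPBPB2B2.05, described above, and SPBC25B2.08, a protein known only in fission yeast and named after its value was seen, with 1001, 941 and 1038 at 48 h, against 842, 781 and 803 at 36 h (log2 difference 0.30 ± 0.053 SE, adjusted p = 0.000746). pmp20 rose (adjusted p = 0.0494) and lost its call without any 1 library (adjusted p up to 0.139). str3 fell (adjusted p = 0.0275), but not with the 6 libraries alone or without 48 h library a, 48 h library c, 36 h library b or 36 h library c (adjusted p up to 0.133). In the auxotrophic marker genes leu1 had 8637, 8478 and 7896 at 48 h, against 9751, 9866 and 10083 at 36 h (log2 difference -0.25 ± 0.034 SE, adjusted p = 4.6e-05), ade6 and his3 had log2 ratios of -0.096 and -0.004 (adjusted p = 0.0378 and 0.955), ade6 without its call when any 1 library was left out (adjusted p up to 0.123), and ura4 was listed at 0 in every group.

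Some genes of protein synthesis fell by small amounts, and most of those tested did not pass. Over all genes 2858 of 5622 ratios were below 0 and 7.56% of genes tested fell. Of 85 genes of 60S ribosomal proteins, 81 had log2 ratios below 0, and of 67 tested none rose and 12 fell, with a median of -0.094. Of 56 genes of 40S ribosomal proteins, 55 were below 0, and of 41 tested none rose and 11 fell, with a median of -0.088. The lowest of each were rpl1602, with 12737, 12133 and 11146 normalized reads at 48 h, against 14708, 13839.5 and 16093 at 36 h (log2 difference -0.31 ± 0.05 SE, adjusted p = 0.000292), and rps001, with 9798, 9562 and 8602 at 48 h, against 10938, 10915 and 11684 at 36 h (log2 difference -0.26 ± 0.044 SE, adjusted p = 0.000388). After scaling to the same total 8 genes of each list fell and none rose. Without 36 h library b, 38 of the 60S and 23 of the 40S genes fell, without 48 h library a 7 and 7, without 36 h library c 7 and 6, without 36 h library a 8 and 7, and with the 6 libraries alone 5 and 4. Many of these genes have near-identical copies, between which reads can be divided in error. In the course as a whole rpl1602 had averaged 23398 at 0 h, 5181 at 8 h and 17051 at 24 h.

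Of 46 translation factors tested, none rose and 17 fell, with a median of -0.084 over 52 measured. With equal totals 7 fell and 1 rose, and with the 6 libraries alone 5 fell. Without 48 h library a, 48 h library c or 36 h library c 9 fell, and without 48 h library b or 36 h library a 11. tif213, the gamma subunit of eIF2 that carries the initiator tRNA, had 1667, 1689 and 1564 normalized reads at 48 h, against 1984, 2011 and 2092 at 36 h and was 1.24-fold lower (log2 difference -0.30 ± 0.04 SE, adjusted p = 3.26e-05). The abundant elongation factor gene tef103 averaged 93172 at 48 h, against 110464 at 36 h and was not tested. oga1, homolog of the ribosome-binding protein Stm1 of budding yeast, had 5932, 5878 and 4973 at 48 h, against 7963, 7761 and 9293 at 36 h and was 1.49-fold lower (log2 difference -0.57 ± 0.095 SE, adjusted p = 0.000347). It is on no list and was named after its value was seen.

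In the aminoacyl-tRNA synthetases, which charge tRNAs, 1 of 37 rose and 8 fell, with a median of -0.035, beside 6.55% and 7.56% of all genes, and 2 rose and 3 fell with equal totals. Without 48 h library a or 36 h library c 3 fell, as with the 6 libraries alone, and without 48 h library b 5. nrs1, for asparagine, had 3039, 3021 and 2953 normalized reads at 48 h, against 3529, 3611 and 3529.9 at 36 h (log2 difference -0.24 ± 0.036 SE, adjusted p = 0.000109), and yrs1, for tyrosine, had 2173, 2078 and 2000.5 at 48 h, against 2302, 2551 and 2580.1 at 36 h (log2 difference -0.24 ± 0.05 SE, adjusted p = 0.0025). The 114 measured genes of ribosome biogenesis had 2 that rose, 6 that fell and a median of -0.018, which became 0.014 with equal totals. The 6 falls became 3 without 48 h library a, 2 without 36 h library c and 11 without 36 h library b. tif6, needed for assembly of the 60S subunit, had 3336, 3435 and 3453 at 48 h, against 4041, 3726 and 3864 at 36 h (log2 difference -0.19 ± 0.033 SE, adjusted p = 0.000664), and utp13, of the U3 particle that processes rRNA, had 1588, 1622 and 1615 at 48 h, against 1382, 1403 and 1459 at 36 h (log2 difference 0.19 ± 0.042 SE, adjusted p = 0.00514). The subunits of RNA polymerase I had 1 call of 15, rpc40, which it shares with RNA polymerase III, and that call was lost when any 1 library was left out (adjusted p up to 0.113). Of 18 genes of RNA polymerase III and its factors 2 rose and 1 fell. Neither rise was left with the 6 libraries alone, or without 48 h library a, 48 h library c, 36 h library a or 36 h library b. The gene that fell was rpc53, with 1062, 1036 and 1014 at 48 h, against 1247, 1216 and 1235 at 36 h (log2 difference -0.25 ± 0.042 SE, adjusted p = 0.000476).

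Some genes of respiration fell as well. In oxidative phosphorylation 40 of 49 measured genes were below 0, and of 46 tested 1 rose and 17 fell, with a median of -0.093. With equal totals 10 fell, with the 6 libraries alone 8, and without 48 h library b 11. The gene that rose was coa6, an assembly factor of cytochrome c oxidase, with 535, 512 and 524 normalized reads at 48 h, against 474, 426 and 377 at 36 h (log2 difference 0.30 ± 0.068 SE, adjusted p = 0.00599). Among those that fell, atp14, of the ATP synthase, had 2678, 2579 and 2481 at 48 h, against 3028, 2935 and 2994 at 36 h (log2 difference -0.21 ± 0.037 SE, adjusted p = 0.000653), and qcr6, of the cytochrome bc1 complex, had 7373, 7129.9 and 7125 at 48 h, against 8539, 8076 and 8024 at 36 h (log2 difference -0.19 ± 0.037 SE, adjusted p = 0.00181). Of the 72 mitochondrial ribosomal protein genes none rose and 4 fell, fewer than the 7.56% of all genes, and with the 6 libraries alone there was no call. Without 48 h library a 2 fell, and without 48 h library b or 36 h library a 1. Of 42 proteasome genes none rose and 6 fell, pre6 among them with 2578, 2584 and 2621 at 48 h, against 2899, 2831 and 2927 at 36 h (log2 difference -0.15 ± 0.033 SE, adjusted p = 0.00383), and the median of -0.022 became 0.010 with equal totals. Without 48 h library a or 36 h library a 3 fell.

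In counts of normalized reads, which also depend on transcript length, 5 of the 8 protein-coding genes with the greatest losses were on the glycolysis and fermentation list. Such a ranking favours abundant transcripts. Over the 21 genes of the list 13 log2 ratios were below 0 and 8 above, with a median of -0.068, where 2858 of all 5622 genes were below 0. eno101, a predicted enolase, averaged 100447 at 48 h, against 130470.0 at 36 h, adh1, alcohol dehydrogenase, averaged 75579 at 48 h, against 89350.2 at 36 h, gpm1, phosphoglycerate mutase, averaged 78362 at 48 h, against 90595 at 36 h and tdh1, glyceraldehyde-3-phosphate dehydrogenase, averaged 71249 at 48 h, against 79587 at 36 h. None of these could be tested. pyk1, pyruvate kinase, and pdc201 were among the 8 greatest gains, pyk1 with 108042 at 48 h, against 100908 at 36 h. Of the 21 genes on the list only 5 were tested: pdc202 rose, adh4 fell with 2825, 2986 and 2893 at 48 h, against 3189.7, 3477 and 3687 at 36 h (log2 difference -0.25 ± 0.069 SE, adjusted p = 0.02), and adh4 was not called without 48 h library a, 48 h library c or 36 h library c (adjusted p up to 0.0984). The other large gains were of SPCC1235.01, a Schizosaccharomyces-specific protein, which averaged 198436 at 48 h, against 171945 at 36 h, of mfs1, a spermidine transporter, with 39326 at 48 h, against 31583 at 36 h, of zym1, a metallothionein that binds zinc, with 55670.2 at 48 h, against 48885 at 36 h, and of cpy1, the vacuolar carboxypeptidase, with 86358 at 48 h, against 80319 at 36 h. These averages are the authors' means and come with no spread.

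Some genes of DNA replication and chromatin fell, where 7.56% of all genes fell and 6.55% rose. In the S phase list of MBF targets none of 15 rose and 3 fell, with a median of -0.052. With equal totals, with the 6 libraries alone, or without 48 h library b or 48 h library c, 2 fell. cdc18, which loads the replicative helicase, had 455, 429 and 427 normalized reads at 48 h, against 559, 539 and 532 at 36 h (log2 difference -0.31 ± 0.073 SE, adjusted p = 0.00733), tos4, a chromatin protein, had 1303, 1329.7 and 1289 at 48 h, against 1543, 1651 and 1538 at 36 h (log2 difference -0.27 ± 0.052 SE, adjusted p = 0.00151), and cdc22, of ribonucleotide reductase, passed in the fit of all groups (log2 difference -0.15 ± 0.044 SE, adjusted p = 0.0277) but not with equal totals, with the 6 libraries alone, or without any 48 h library or 36 h library b (adjusted p up to 0.152). Of 11 histone genes 8 were tested and 4 fell, hht1 (histone H3) with 6609, 6762 and 6726 at 48 h, against 7606, 7156 and 7720.4 at 36 h (log2 difference -0.16 ± 0.031 SE, adjusted p = 0.00151), and 1 fell with equal totals, as with the 6 libraries alone, and 2 without 48 h library b, 48 h library c or 36 h library b.

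The cell wall list had a median of 0.079, with 16 of 20 measured genes above 0. Of 15 tested 2 rose and none fell, where 6.55% of all genes rose, and 4 rose with equal totals. bgs1, the beta-glucan synthase of the primary septum and spore wall, had 5134, 5186 and 5108 normalized reads at 48 h, against 4258, 4754 and 4508 at 36 h (log2 difference 0.19 ± 0.033 SE, adjusted p = 0.000494). bgs3, another synthase, passed (log2 difference 0.16 ± 0.043 SE, adjusted p = 0.0171), although not with the 6 libraries alone or without 48 h library a or 36 h library a (adjusted p up to 0.123). The glucanosyltransferase gene gas1 averaged 13972 at 48 h, against 12634 at 36 h and gas2 averaged 15348 at 48 h, against 13859.9 at 36 h, and neither was tested.

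Of 13 iron and heme genes 1 rose and 3 fell, beside 6.55% and 7.56% of all genes. One of the falls was that of str3, described above, whose call depended on the setting. The rise was lost with the 6 libraries alone and without 48 h library a, 48 h library b or 36 h library a, and 1 fell without 48 h library a. fip1, the iron permease, had 1459, 1668 and 1736 normalized reads at 48 h, against 2017, 2205 and 2310.5 at 36 h (log2 difference -0.44 ± 0.093 SE, adjusted p = 0.00355), and its partner oxidase fio1 had 557, 650.2 and 619.7 at 48 h, against 728, 707 and 748 at 36 h (log2 difference -0.27 ± 0.07 SE, adjusted p = 0.0125), not called without 48 h library a (adjusted p = 0.126). Of 154 membrane transporters tested, 9 rose and 19 fell, where 9 is below the share of all genes that rose (6.55%), but with equal totals 21 rose and 13 fell, and without 36 h library b 17 rose and 13 fell. Without 48 h library c 11 rose and 10 fell. ght8, of the hexose transporters, had 13961, 15086 and 14666 at 48 h, against 17652, 18965 and 17904 at 36 h (log2 difference -0.32 ± 0.041 SE, adjusted p = 2.82e-05). Among 13 genes for the use of nitrogen sources none rose and 2 fell, aat1 and put4, a predicted proline permease with 1483, 1358 and 1345 at 48 h, against 1555, 1807 and 1617 at 36 h (log2 difference -0.24 ± 0.05 SE, adjusted p = 0.00256).

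Autophagy genes were mostly a little above 0, 26 of 32, with a median of 0.037, and of 31 tested 2 rose and none fell, a share of rises close to the 6.55% over all genes. Neither was called without 48 h library b, 36 h library a or 36 h library c. One of them was atg2, of autophagosome formation, with 1294, 1373 and 1307 normalized reads at 48 h, against 1085, 1235 and 1083 at 36 h (log2 difference 0.22 ± 0.056 SE, adjusted p = 0.0111), with an adjusted p of up to 0.0694 without those libraries. atg8, the ubiquitin-like protein of that membrane, had 2482, 2358 and 2276 at 48 h, against 2556, 2615 and 2593 at 36 h, in the other direction (adjusted p = 0.119). Stress and heat shock genes split as well. hsp3103, a ThiJ domain protein, had 892, 883 and 919.7 at 48 h, against 689, 739 and 686 at 36 h and rose 1.27-fold (log2 difference 0.35 ± 0.049 SE, adjusted p = 6.64e-05), and caf5, a polyamine transporter on the stress list, had 5556, 5596 and 5725 at 48 h, against 7546, 7088 and 6236 at 36 h and fell (log2 difference -0.30 ± 0.062 SE, adjusted p = 0.00258). hsp16, a small heat shock protein, averaged 27582 at 48 h, against 21572 at 36 h and was not tested.

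Beside 6.55% of all genes that rose and 7.56% that fell, of 21 measured mating and pheromone genes 2 rose and none fell, and neither rise was left with the 6 libraries alone or without 48 h library b, 36 h library a or 36 h library c. ste11, the transcription factor that begins sexual differentiation, had 3127, 3209.9 and 2941 at 48 h, against 2622, 2961 and 2447 at 36 h, which overlapped (log2 difference 0.21 ± 0.056 SE, adjusted p = 0.0148), and its call was lost with the 6 libraries alone and without 48 h library a, 48 h library b, 36 h library a or 36 h library c (adjusted p up to 0.0952). Of 38 meu and spo genes 3 rose, rec10 and meu27 among them, and 2 fell. Of 74 mug genes 2 rose and 3 fell, 4 rose without 36 h library b, and 1 fell without 48 h library b. mug108 had 5344, 5069.6 and 4304 normalized reads at 48 h, against 3609, 3078 and 3403 at 36 h and rose 1.46-fold (log2 difference 0.54 ± 0.1 SE, adjusted p = 0.00107), and mug14, an adducin, had 11118, 11574 and 12468 at 48 h, against 16668, 15510.4 and 15600.4 at 36 h and fell (log2 difference -0.44 ± 0.046 SE, adjusted p = 1.85e-06). The wtf meiotic drive genes, which are similar to each other in sequence, had 18 of 23 log2 ratios above 0 and no call (limma, adjusted p of 0.05), against 2 calls with equal totals.

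Noncoding RNA genes were called somewhat more often as higher than as lower, with 57 of 697 that rose (8.18%) and 30 that fell (4.30%), and 84 and 19 with equal totals. The 30 falls became 15 without 36 h library a and 16 without 48 h library a. In protein-coding genes the shares were 6.34% and 8.09%. The gene with the greatest ratio of all, srp7, encodes the RNA of the signal recognition particle, made by RNA polymerase III. It had 109, 65.1 and 685 normalized reads at 48 h, against 70.1, 139 and 60.7 at 36 h, so its log2 ratio of 1.67 rested on 1 library, and the groups overlapped. SPRRNA.49, annotated as 28S rRNA, had 106, 93.2 and 329 at 48 h, against 118, 97.9 and 70.6 at 36 h, with the same library high. Neither had a test in the fit of all groups, since their reads at 8 h were not recovered, and with the 6 libraries alone their adjusted p-values were 0.489 and 0.428.

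Next among noncoding RNAs were SPNCRNA.1121, annotated as intergenic in the files, and antisense RNAs. SPNCRNA.1121 overlaps 3 annotated genes in the ASM294v3 annotation, the hexose transporter gene ght1 among them, which averaged 328 at 48 h, against 329 at 36 h. It had 158, 216 and 214 normalized reads at 48 h, against 95.3, 90.5 and 110.1 at 36 h and rose 1.98-fold (log2 difference 0.94 ± 0.13 SE, adjusted p = 7.63e-05). rgf3-antisense-1 had 97, 114 and 124 at 48 h, against 59.7, 59.5 and 50.8 at 36 h (log2 difference 0.93 ± 0.18 SE, adjusted p = 0.00129), while rgf3 itself averaged 997 at 48 h, against 889.9 at 36 h. sua1-antisense-1 had 3726, 3703 and 3710.1 at 48 h, against 2364, 2255 and 2255 at 36 h (log2 difference 0.70 ± 0.034 SE, adjusted p = 5.88e-12), with an average of 95.8 at 0 h, and the sulfate adenylyltransferase gene sua1 on the other strand averaged 9174 at 48 h, against 9156 at 36 h (adjusted p = 0.97). Among those that fell, omh4-antisense-1 had 472, 449.6 and 504 at 48 h, against 744, 689 and 709 at 36 h (log2 difference -0.59 ± 0.061 SE, adjusted p = 1.84e-06), and tif211-antisense-1 had 139, 199 and 177 at 48 h, against 261, 420.2 and 343 at 36 h and lost its call without any 48 h library, 36 h library b or 36 h library c (adjusted p up to 0.191). The kit marks strand, but the sources used here do not say whether counting used it, so reads of an antisense gene and its partner may be mixed. Of the remaining lists, none of the 187 tRNA genes reached the minimum, and 1 of 13 Tf2 transposon genes did and was not called. The 21 snoRNA genes gave 1 fall, which was lost with the 6 libraries alone and without 48 h library a, 48 h library b, 36 h library a or 36 h library c. Of 9 genes for trehalose and glycerol 6 were tested and 1 fell, where 7.56% of all genes fell. Of 4 genes of uracil catabolism only 2 were tested, and none was called.

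**Figure D5:**
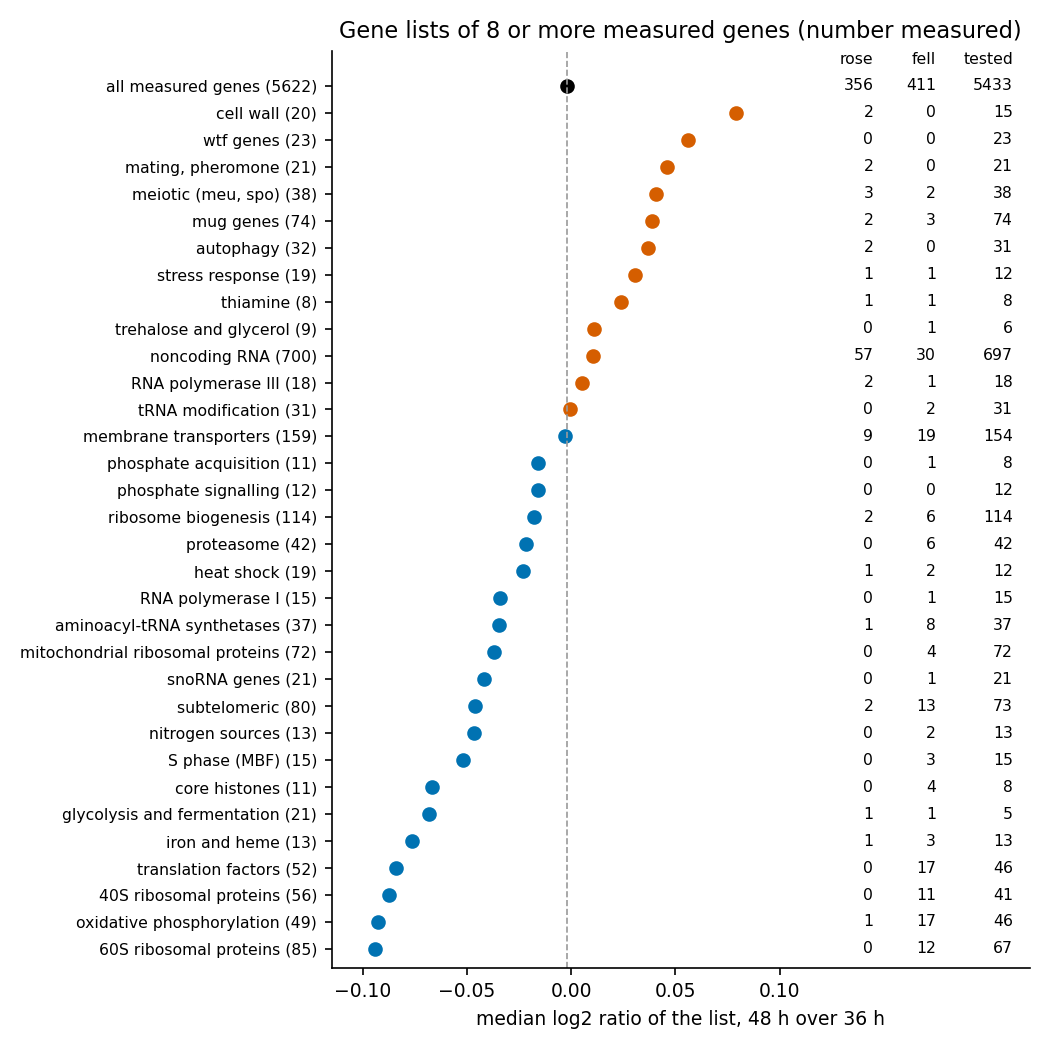
Median log2 ratio of averages, 48 h over 36 h, for gene lists with 8 or more measured genes (number in parentheses) and for all measured genes (dashed line), in orange above and blue below that line, with the genes that rose, fell and were tested at the right. The lists of cell separation genes and of genes needing Pho7 are not drawn, the latter with a median of 0.107 over 18 measured genes. Medians of the lists drawn run from -0.094 for 60S ribosomal proteins to 0.079 for the cell wall. Those of tRNA modification, membrane transporters, phosphate acquisition, phosphate signalling, ribosome biogenesis, the proteasome and heat shock, and of all genes, turn positive when both groups are scaled to the same total.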

How the data were processed

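Poly(A)+ RNA was sequenced from 24 libraries in 8 groups of 3, from a stranded kit. The authors aligned reads to genome build ASM294v2 with HISAT2 2.1.0, counted them per gene with HTSeq 0.10.0 and used DESeq2. The deposited tables, 1 for each time, hold signal values: for each gene and group the authors' mean of read counts divided by size factors, called normalized reads here, with no spread. The WT average was the same in all 7 tables, so the groups share 1 scaling and were compared directly. Other deposited columns hold the authors' own comparison with WT (a mean, log2 fold change with its error, a statistic and p-values) and were not used. The sources used here do not say how overlapping genes and strand were treated in counting.

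The 48 h and 36 h averages were joined by systematic ID, and the ratio was taken for genes with 100 or more in the higher group. As each average is the mean of whole reads over 3 size factors, printed to 15 digits, the reads of the libraries were recovered by search. In all, 97.6% of the averages searched at 48 h and 99.1% at 36 h had 1 solution, and genes without one have no test. Above an average of 500 the search limited how far libraries may differ, and above 60000 no search was made. Recovered reads of 6140 genes averaging 10 or more in at least 1 pho7Δ group, with reads recovered in all 7, were tested with limma 3.58.1 (voom, size factors of the authors' scaling, Benjamini-Hochberg adjustment, two-sided, adjusted p of 0.05) in R 4.3.3. This recovery and test were added after seeing the data. Differences are 48 h minus 36 h on the log2 scale. SE and p-values measure the spread between the 3 cultures of a group, pooled over all 7 pho7Δ groups. They do not measure the spread of the 48 h and 36 h groups alone, except in the fit of those 6 libraries. The search and the fit of 6 libraries were also run on simulated data, with the same spread set for all genes. The fit of all 7 groups was not simulated.

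Named genes were the 10 protein-coding and 5 noncoding genes with the largest change each way, the 8 with the largest gain or loss of normalized reads, all genes of 3 lists and up to 4 of each other list. The genes and lists were chosen with earlier results of these data known. Gene order and overlaps came from the RefSeq annotation of ASM294v3, in which 6832 genes matched by locus tag. Of 178 named genes, 152 overlap another annotated gene, so their reads are uncertain to that extent.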

Additional observations from a re-analysis of the deposited data

How the results depend on the processing

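The count of 4 genes past 2-fold became 12 with a minimum of 20, 116 with no minimum, 30 at 1.5-fold and 1 at 3-fold, and was 6 with equal totals. Of the 4 genes, 3 also passed the limma test. The limma count of 767 became 404 with the libraries of 36 h and 48 h alone and ran from 493 to 813 with each library left out in turn, with 493, 502, 510 and 510 without 48 h library a, 48 h library b, 36 h library a and 36 h library c. It was 794 with limma's trend on log2 values, 885 with equal totals and 797 with genes of 100 or more alone, and 1593 genes had an unadjusted p of 0.05 or below. Equal totals moved the medians of strain markers to -0.064, ribosome biogenesis to 0.014, RNA polymerase III to 0.037, tRNA modification to 0.031, translation factors to -0.052, aminoacyl-tRNA synthetases to -0.0029, the proteasome to 0.010, oxidative phosphorylation to -0.061, mitochondrial ribosomal proteins to -0.0052, the S phase list to -0.020, mug genes to 0.070, thiamine to 0.055, the subtelomeric list to -0.014, wtf genes to 0.088 and noncoding RNA to 0.042. Of these medians, those of ribosome biogenesis, tRNA modification and the proteasome changed sign, and no called result reversed under the alternatives run. Over the named genes and settings, 1372 limma results kept their side of the threshold, 148 lost a call and 48 gained one, and the cause was not tested. All alternatives of the limma test were chosen after seeing the data. No paired analysis was possible because the recovered libraries carry no replicate number. Of the 189 measured genes without a test, 183 averaged over 10000 normalized reads in at least the higher group.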
